A study of Mus musculus with 13 samples.

Results

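The results below describe where HDAC3 was found on chromatin in Ba/F3 cells with IL3 against without IL3. The comparison uses the 4 HDAC3 replicate lists of called regions, 2 per condition, which held 3082 regions on assembled chromosomes out of 62621 regions in the 12 replicate lists of the series. Regions of the 4 lists that overlapped by 1 bp or more were merged, which gave 2572 merged regions. The 2 pooled HDAC3 lists, which the authors called on the merged library of each condition, are used as support only.

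Ba/F3 is an established mouse pro-B cell line that needs interleukin 3 (IL3) to grow and survive. All cells were kept in medium with 1 ng/mL IL3 before the experiment. In the group with IL3, IL3 was withdrawn for 6 h and then given back at 10 ng/mL for 30 min. In the group without IL3, it was withdrawn for 6 h and not given back. The HDAC3 antibody was sc11417X, each group had 2 biological replicates, and the series also holds STAT5A and LSD1 libraries of the same conditions. All values therefore come from 1 cell line and 1 antibody, and no library lacking HDAC3 is among those analysed here.

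HDAC3 is a histone deacetylase that works as the catalytic subunit of the NCoR corepressor complexes. The scaffold NCoR1 activates the enzyme, and TBL1X and TBL1XR1 are further subunits that bind histones. The complexes have no sequence preference of their own and are brought to DNA by transcription factors. STAT5A is such a factor, which the IL3 receptor activates through JAK2, and LSD1 is the histone demethylase of CoREST complexes. Known STAT5 targets in IL3-dependent cells include the feedback inhibitors Cish, Socs1 and Socs3 and the survival kinase Pim1.

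Promoter sequences under HDAC3 regions are shown because they are the called stretches for which sequence was at hand, and because they show the motifs that were counted. They are from RefSeq, GRCm38.p6, which is the mm10 assembly, and are read 5′ to 3′ on the strand of the gene. Capitals mark STAT motifs (TTCNNNGAA), AP-1 motifs (TGANTCA), SP and KLF motifs (GGGCGG) and ZNF143 motifs on either strand. The Socs3 stretch covers chr11:117969360-117969616 on the minus strand. HDAC3 with IL3 replicate 1 was called over its last part, at positions −116 to 6 relative to the transcript start, and the STAT motif lies upstream of that region, at −154 to −146. The other stretches are the bases that the named library's region shares with the window. The stretch of Klf9 is at chr19:23141120-23141242 (plus strand), that of Trak2 at chr1:58973499-58973621 (minus strand), and that of Tgfb1 at chr7:25686856-25686978 (plus strand). The stretch of Tfr2 is at chr5:137570820-137570966 (plus strand) and that of Tbl1xr1 at chr3:22076402-22076509 (plus strand). In Trak2 the STAT and the ZNF143 motif overlap and appear as 1 run of capitals.
Socs3, with IL3 replicate 1: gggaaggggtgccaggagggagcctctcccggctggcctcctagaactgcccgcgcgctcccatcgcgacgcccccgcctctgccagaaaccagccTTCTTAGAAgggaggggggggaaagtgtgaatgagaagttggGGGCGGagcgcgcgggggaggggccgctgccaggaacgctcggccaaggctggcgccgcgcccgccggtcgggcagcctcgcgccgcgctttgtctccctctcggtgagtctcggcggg
Klf9, with IL3 replicate 1: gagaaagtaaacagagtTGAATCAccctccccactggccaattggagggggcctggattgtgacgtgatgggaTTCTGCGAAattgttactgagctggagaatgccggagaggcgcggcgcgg
Trak2, with IL3 replicate 1: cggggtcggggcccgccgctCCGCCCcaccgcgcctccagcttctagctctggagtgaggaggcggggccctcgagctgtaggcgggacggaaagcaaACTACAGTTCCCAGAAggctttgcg
Tgfb1, with IL3 replicate 1: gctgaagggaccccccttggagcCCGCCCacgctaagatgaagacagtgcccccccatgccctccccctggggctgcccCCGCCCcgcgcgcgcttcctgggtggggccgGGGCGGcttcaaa
Tfr2, without IL3 replicate 2: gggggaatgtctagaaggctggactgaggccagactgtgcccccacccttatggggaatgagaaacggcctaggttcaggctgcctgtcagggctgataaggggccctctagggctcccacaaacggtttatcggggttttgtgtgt
Tbl1xr1, without IL3 replicate 2: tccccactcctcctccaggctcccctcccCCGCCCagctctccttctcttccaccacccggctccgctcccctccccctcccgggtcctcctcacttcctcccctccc

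On assembled chromosomes, the HDAC3 lists with IL3 held 683 and 234 regions in replicates 1 and 2, against 1632 and 533 regions without IL3. The ranges overlapped, since replicate 1 with IL3 had more regions than replicate 2 without. The means were 458.5 ± 317 regions with and 1082.5 ± 777 regions without IL3 (SD, n = 2 each), a log2 ratio of −1.22 between the geometric means. The two-sided exact permutation p was 0.667, in a design whose smallest possible p is 0.333. Between the number 1 lists the log2 ratio was −1.26 and between the number 2 lists −1.19. The number 1 lists exceeded the number 2 lists by 1.58 on the same scale, so lists of 1 condition differed more than the conditions did. The ratio was −0.45 without replicate 2 with IL3 (exact permutation p 1) and −0.41 without replicate 1 without IL3 (exact permutation p 1).

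The number of reads per library is not stated in the labels. The authors' score of a region is defined in none of the sources used here, and within a list low scores lie within 0.1 of whole multiples of 1 step. The step was 2.74 and 1.71 with IL3, against 5.64 and 3.67 without IL3. If 1 step is 1 read, the libraries with IL3 were the deeper ones, and the shallowest was replicate 1 without IL3: relative to it, replicates 1 and 2 with IL3 had 2.06 and 3.30 times the depth, and replicate 2 without IL3 had 1.54 times. On that reading the list with the most regions came from the library of lowest depth. Because the step differs, scores are compared only within a list, as an order. Median scores were 21.9 and 29.1 with IL3, against 39.5 and 25.7 without IL3.

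Replicate 2 with IL3 stood apart from the other lists, so results that rest on it are given with and without it. A single region on chromosome 2, chr2:98667061-98667213, had a score of 76945.2 and held 79.5% of the list's summed score. In the other lists the highest region held 1.68% in replicate 1 with IL3, against 0.653% and 1.41% without IL3. That region was also called in replicate 1 of STAT5A with IL3 and in no other replicate list of the series, and it is not in the pooled HDAC3 list with IL3. The next regions of the list lay on chromosome 14 (chr14:19417769-19417921, score 3258.3) and chromosome 9 (chr9:35305297-35305449, score 3160.8). A further 11 regions of this list fell between positions 3000047 and 3038272 of chromosome 9, where the other 3 HDAC3 lists had 0. None of its 10 highest regions was in the pooled list with IL3, which held 31.2% of all its regions and 75.1% of those of replicate 1.

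Most HDAC3 regions were called in 1 library and not in another. Of the 2572 merged regions, 2149 (83.6%) were in 1 list alone, 344 in 2 lists, 71 in 3 and 8 in all 4. Replicates 1 and 2 with IL3 had 397 and 173 regions that no other list shared, against 1260 and 319 without IL3. Some of these lay next to a region of another list: 50 of the 397 of replicate 1 with IL3 (12.6%) were within 500 bp of one. The pooled list without IL3 also held 51 of those 397, and 7 of the 173 of replicate 2. The plot of merged regions by list membership gives the count of every set.

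**Figure D1:**
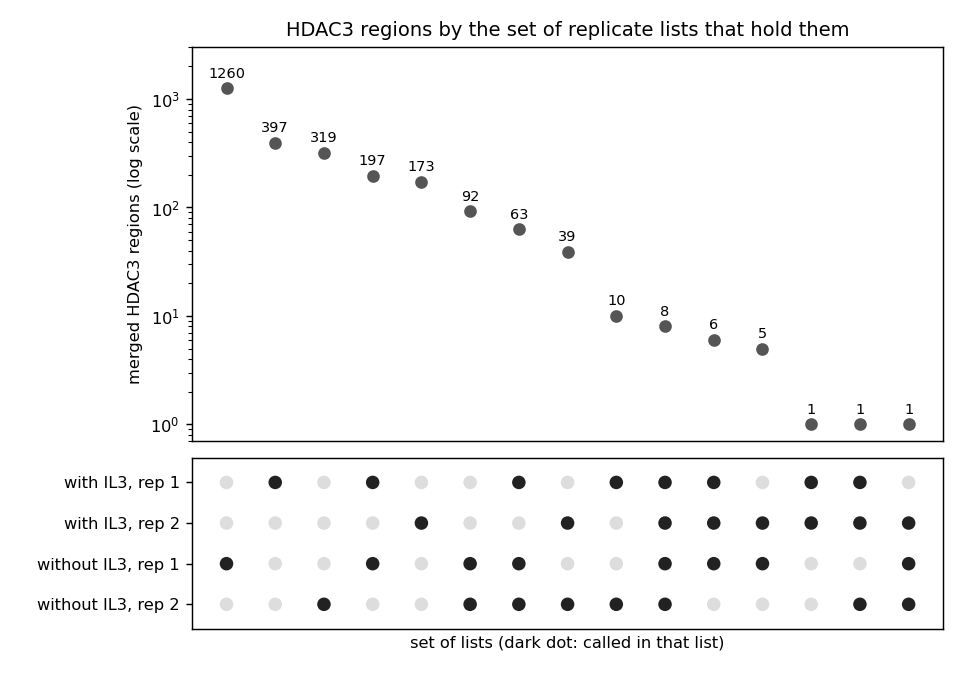
Number of merged HDAC3 regions (vertical axis, log scale) for each set of replicate lists that hold them; dark dots below mark the lists of the set, with IL3 above without IL3. Regions of 1 list alone lead with 1260 in replicate 1 without IL3, and 8 regions are in all 4 lists.

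Binding that followed the condition in both replicates was rare. In both lists with IL3 and neither without, 1 merged region was called, 0.0389% of all merged regions. In both lists without IL3 and neither with, 92 were called, 3.58% of all. These counts turn on single libraries. Leaving out replicate 1 or 2 with IL3 gave 175 and 398 regions with IL3 alone, and leaving out replicate 1 or 2 without IL3 gave 7 and 2. The 92 regions without IL3 alone became 152 or 93 without replicate 1 or 2 with IL3, and 413 or 1358 without replicate 1 or 2 without IL3. The 2 lists with IL3 shared 16 merged regions, of which 15 were also in a list without IL3. The 2 lists without IL3 shared 164, of which 72 were also in a list with IL3. The count with IL3 alone therefore could not exceed 16, while that without IL3 alone could reach 164.

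Whether replicates of a condition shared more of their leading regions than libraries of different conditions did depended on the libraries used. To keep list length out of the comparison, the 234 highest regions of each list were used, as many as the shortest list holds. Replicates 1 and 2 with IL3 had 5.13% of these in common, against 20.9% for the replicates without IL3. Across conditions, the number 1 lists had 26.1% in common and the number 2 lists 16.2%. The unlike-numbered pairs across conditions had 15.4% (replicate 1 with and replicate 2 without IL3) and 5.98% (replicate 2 with and replicate 1 without IL3). The mean across conditions exceeded the mean within them by 2.88 percentage points. Without replicate 1 with IL3 this difference was −9.83, and without replicate 2 with IL3 it was −0.84, so its sign rests on which libraries are used.

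The 8 regions in all 4 lists included some of the highest-scoring regions of every HDAC3 list but replicate 2 with IL3. The first lies 61073 bp downstream of Axin2, which encodes a negative regulator of Wnt signalling, at chr11:109011720-109011993. It had scores of 279.5 and 169.3 with IL3, against 473.8 and 231.3 without IL3, and was the highest region of every list but replicate 2 with IL3, where it was in place 15. A region on chromosome 3, chr3:5860612-5860790, 282105 bp from the nearest gene end (Pex2, a peroxisome assembly gene), had 139.8 and 189.9 with IL3, against 231.3 and 113.8 without IL3. It stood between place 2 and place 4 in the other 3 lists and in place 14 in replicate 2 with IL3. Another, at chr17:36231225-36231377 near Rpp21, which encodes an RNase P subunit, had 126.1 and 66.7 with IL3, against 236.9 and 99.1 without IL3. The other 5 lie inside Emilin2, Nek6, Zfpm1 (the GATA cofactor FOG1) and, as a pair, Gse1, which encodes a protein found with LSD1 and CoREST. Of the 8, all but the region in Nek6 are in all 6 pooled lists, so STAT5A and LSD1 were called there in both conditions too.

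The 1 region called with IL3 alone in both replicates was not a separate site. It lies inside Cdk8, which encodes the kinase of the Mediator complex, at chr5:146261106-146261363, with scores of 115.1 and 135.1. Right beside it, all lists but replicate 2 with IL3 had a region that begins at 146260958 or a few bases later, with scores of 115.1 in replicate 1 with IL3, against 287.7 and 110.2 without IL3. When regions within 500 bp of each other were joined, a setting tried once the data had been seen, the Cdk8 site was in all 4 lists. The count with IL3 alone was again 1, now at chr15:101388248-101388660, 18292 bp from a gene end, with low scores of 24.7 and 18.8. Joining also put a region at Nfe2, which encodes an erythroid bZIP factor, in all 4 lists. There, replicate 1 with IL3 (74.0) and the others (32.5 in replicate 2 with IL3, against 90.2 and 51.4 without IL3) were called on neighbouring stretches. With joining, 12 regions were in all 4 lists and 106 without IL3 alone.

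The 92 regions without IL3 alone were mostly regions that STAT5A and LSD1 also held. LSD1 was called at 85 of them with IL3 and 90 without IL3 (92.4% and 97.8%), and STAT5A at 67 with IL3 and 51 without IL3 (72.8% and 55.4%). Such overlap was not particular to them. The 330 merged regions called in both conditions had 85.8% and 85.8% for LSD1, and 73.3% and 45.8% for STAT5A. The 197 of both number 1 lists alone had 92.9% and 93.4% for LSD1, and 77.2% and 41.1% for STAT5A. The pooled HDAC3 list with IL3 held 24 of the 92. By place, 46 lay inside a protein-coding gene and 56 more than 10 kb from any gene end. The leading region of the 92 lies inside Dnah8, an axonemal dynein gene, at chr17:30821203-30821386, with scores of 107.2 and 51.4 in replicates 1 and 2 without IL3. Others were 11202 bp downstream of Gfi1b (84.6 and 36.7), which encodes a repressor that recruits LSD1, and inside Smad3 (73.3 and 33.0), a transducer of TGF-beta signals. A region at Klf1, the erythroid Krüppel-like factor, 1260 and 1188 bp from its start, had 39.5 and 33.0 without IL3 and was in neither list with IL3. At the Tfr2 promoter, whose sequence is shown above, regions of both replicates without IL3 (50.8 and 25.7) overlapped each other, and none with IL3 was called. Whether these regions lost HDAC3 with IL3 or fell short of the call in shorter lists cannot be told apart.

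The order of shared regions by score could be compared among 71 regions called in replicate 1 with IL3 and both replicates without IL3. Places in the order were similar to a limited degree. Spearman's rho was 0.38 between replicate 1 with IL3 and replicate 1 without, 0.34 between replicate 1 with IL3 and replicate 2 without, and 0.43 between the replicates without IL3. These are descriptions over regions that share a library, and regions are not replicates. The regions with the greatest gain in place with IL3 included 2 at known STAT5 targets. The region 4824 bp downstream of Pim1, chr17:29500838-29501033, had a score of 52.1 in replicate 1 with IL3, against 33.8 and 33.0 without IL3. That put it in place 7 with IL3, against places 68 and 23 without IL3 (ties share the upper place). The score of 33.8 in replicate 1 without IL3 was 6 steps, in a list whose lowest score was 4 steps. That library also had a higher region nearer to Pim1, at chr17:29498083-29498213 (45.1), 2037 bp from the gene end, which this order leaves out. The region near Id1, which encodes an inhibitor of basic helix-loop-helix factors, had 46.6 with IL3, against 56.4 and 25.7 without IL3, in place 11 against 44 and 53. A region 10039 bp upstream of Jak2 had 60.3 with IL3, against 84.6 and 40.4 without IL3, in place 6 against 24 and 16. Regions at Dapp1 (place 14 against 64 and 36), Nt5e (18 against 53 and 53) and Lmna (14 against 36 and 53) rose further than that of Jak2. The region near Osm, also counted below as a STAT5 target, was in place 47 against 36 and 66. At the other end, a region inside Tox2 had 21.9 with IL3, against 135.4 and 44.1 without IL3, in place 47 against 8 and 13. Regions at Eefsec (59 against 31 and 8), Arid3a (70 against 41 and 20) and Med12l (59 against 18 and 23) fell further. Replicate 2 with IL3 held the region of Axin2 but none of the regions named in this paragraph, so these orders rest on 1 library with IL3.

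**Figure D2:**
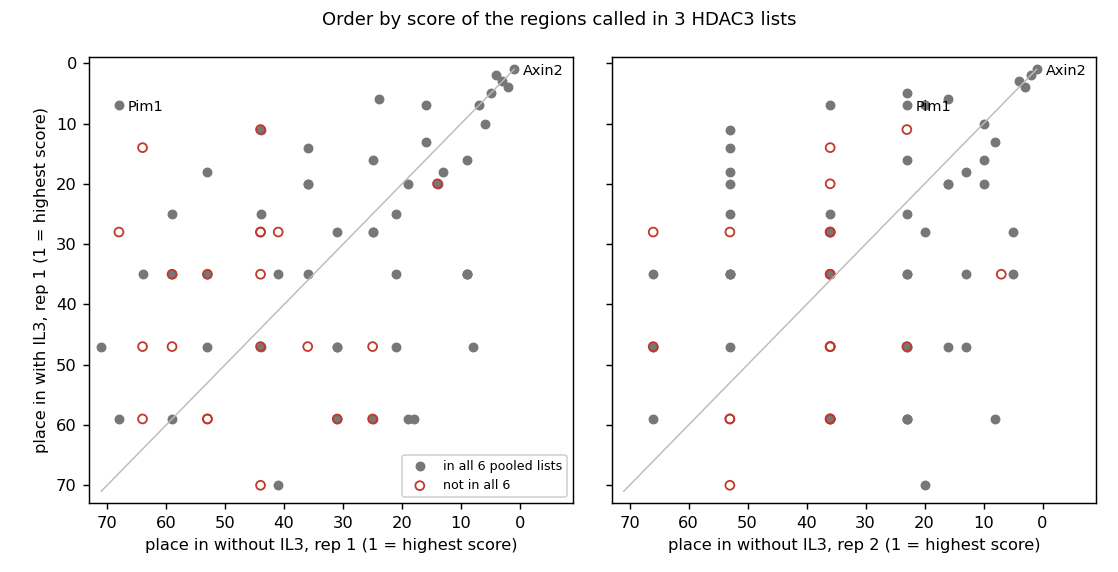
Place by score of the 71 HDAC3 regions called in replicate 1 with IL3 (vertical axis) and in each replicate without IL3 (horizontal axes), where 1 is the highest score; grey points are in all 6 pooled lists and open red ones are not. Axin2 is first in all 3 lists, and Pim1 is in place 7 with IL3, against places 68 and 23 without IL3.

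Around STAT5 targets, replicate 1 with IL3 had regions that no other HDAC3 replicate list had. Near Cish, which encodes a feedback inhibitor of STAT5 signalling, it had 3 regions. Their scores were 57.5 (chr9:107312944-107313066), 38.4 (chr9:107307967-107308089) and 21.9 (chr9:107295553-107295675). The pooled STAT5A list with IL3 overlapped the first and the second, and the pooled STAT5A list without IL3 overlapped none of the 3. Replicate 1 without IL3 had 2 other regions there, both with a score of 33.8 and both more than 15 kb upstream of the gene, and neither number 2 list had any. At Socs3 and Socs1, replicate 1 with IL3 had a region at 21.9, which reaches the transcript start as shown in the sequence above, and one at 19.2, 330 bp from the start of Socs1. The other 3 lists had no region within 10 kb of either gene. Further high regions of this library alone lay 94634 bp upstream of Max, which encodes the partner of MYC (43.8), upstream of Prkar2b (41.1), downstream of Fgd2 (41.1), inside Iqgap2 (38.4), inside Lyl1 (38.4), inside Slc9a9 (38.4) and upstream of Dot1l, which encodes the H3K79 methyltransferase (35.6). Of the 10 highest regions of this library alone, 7 overlapped the pooled STAT5A list with IL3 and not that without IL3, 1 overlapped both (Slc9a9), and 2 overlapped neither (Nfe2 and Fgd2). Among all 397 regions of this library alone, the same sets made up 55.4%, 9.32% and 30.2%, so the 7 are near the share of all. Some of the 10 were not far from calls without IL3: at Iqgap2, replicate 1 without IL3 had a region of its own next to it (84.6).

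**Figure D3:**
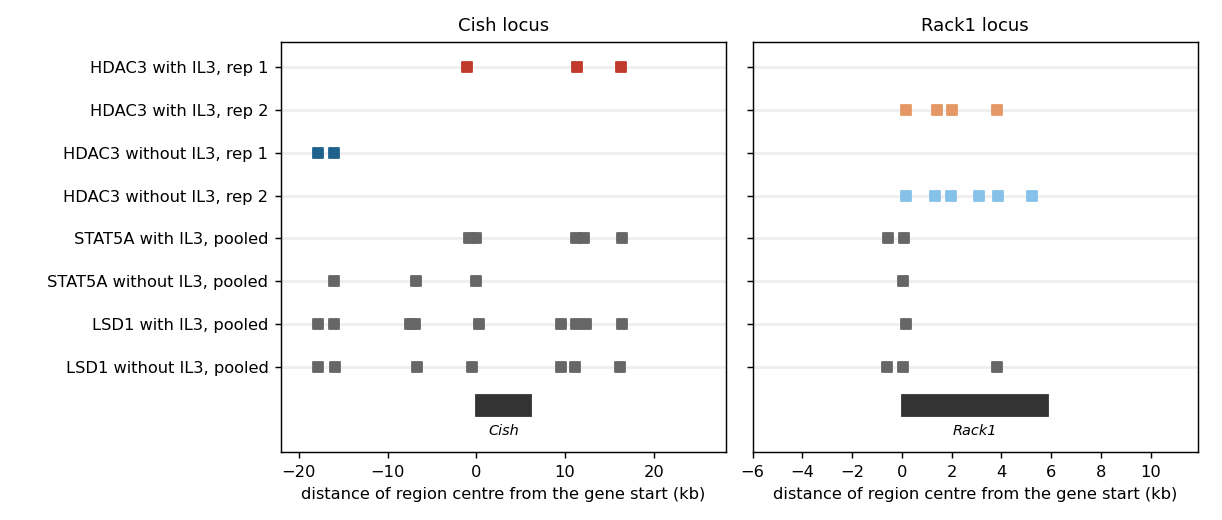
Centres of called regions around Cish and Rack1 (horizontal axes: distance from the gene start in kb; black box: the gene) in the 4 HDAC3 replicate lists and the pooled STAT5A and LSD1 lists, which are grey. Near Cish the replicate with IL3 numbered 1 has 3 regions that no other HDAC3 replicate list has, and along Rack1 the number 2 lists have 4 regions with IL3 and 6 without IL3, where the number 1 lists have 0.

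Over all regions, overlap with STAT5A differed between the lists with IL3 more than between conditions. With IL3, 70.3% and 14.1% of HDAC3 regions overlapped the pooled STAT5A list of the same condition, against 31.8% and 32.5% without IL3. The lists without IL3 lay between those with IL3, and the means differed by 10.1 percentage points (two-sided exact permutation p 1). The difference was 38.1 without replicate 2 with IL3 (exact permutation p 0.333, the smallest possible) and −18.0 without replicate 1 with IL3 (exact permutation p 0.333). The pooled STAT5A lists differ in length, with 15543 regions with and 5043 without IL3 on assembled chromosomes. With the list with IL3 used for all 4 libraries, 70.3% and 14.1% of the regions with IL3 overlapped it, against 53.4% and 40.0% without IL3. With the list without IL3 used for all, 28.4% and 12.4% did with IL3, against 31.8% and 32.5% without IL3. With either list used for all 4, the mean difference turned negative, at −4.48 and −11.7 percentage points.

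The regions of 1 library alone differed in which STAT5A list they met. Of the 397 regions of replicate 1 with IL3 alone, 220 (55.4%) overlapped STAT5A with IL3 and not without, and 37 (9.32%) overlapped both. Of the 1260 of replicate 1 without IL3 alone, 398 (31.6%) overlapped STAT5A with IL3 and not without, and 184 (14.6%) both. The 79 regions in 3 or 4 lists overlapped both STAT5A lists in 70.9% of cases. In replicate 2 alone, 89.6% of the 173 regions with IL3 and 67.7% of the 319 without IL3 overlapped neither. STAT5A overlap was also higher among the highest-scoring than among the lowest-scoring regions of each list, though it did not fall steadily in every list. With each list cut by score into 4 equal parts, it was 80.7% in the first and 62.4% in the last part of replicate 1 with IL3, against 45.6% and 24.5% in those of replicate 1 without IL3. In replicate 2 the same parts had 20.3% and 5.17% with IL3, against 43.3% and 30.1% without IL3. In replicate 2 without IL3 the third part had 21.8%, less than the last.

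LSD1 overlap was high in the number 1 lists of both conditions. With IL3, 75.7% and 19.7% of HDAC3 regions overlapped LSD1 of the same condition, against 83.3% and 55.3% without IL3. The ranges overlapped, and the mean difference was −21.6 percentage points (two-sided exact permutation p 0.667). Without replicate 2 with IL3 it was 6.39 percentage points (exact permutation p 1). Regions with STAT5A and LSD1 together made up 59.3% and 10.7% of the lists with IL3, against 29.5% and 28.0% without IL3. Regions with neither made up 13.3% and 76.9% with IL3, against 14.4% and 40.2% without IL3. Replicate 2 with IL3 thus had the highest share of regions that no other antibody's pooled list of the same condition held. Regions found in all 6 pooled lists, that is with every antibody and in both conditions, made up 15.8% and 4.27% with IL3, against 8.76% and 11.4% without IL3.

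**Figure D4:**
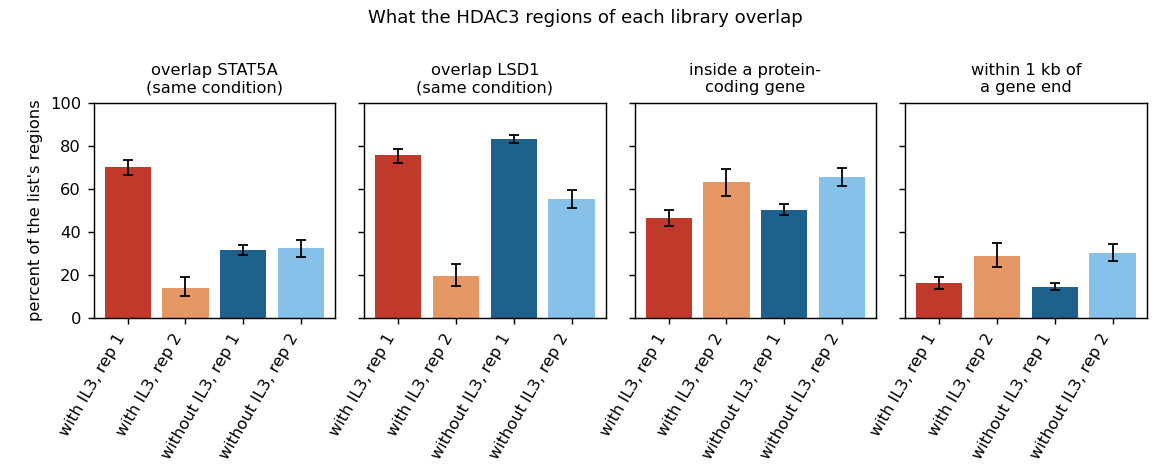
Percent of each list's HDAC3 regions (vertical axes, 0 to 100) that overlap the pooled STAT5A or LSD1 list of the same condition, lie inside a protein-coding gene, or lie within 1 kb of a gene end; bars are single libraries and error bars are 95% Wilson intervals over regions. STAT5A overlap is 70.3% and 14.1% with IL3 and 31.8% and 32.5% without IL3, while the gene-related shares are higher in the number 2 lists of both conditions.

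The shares of HDAC3 regions near any gene end and inside genes differed more between replicate numbers than between conditions. Regions within 1 kb of a gene end made up 16.3% and 29.1% with IL3, against 14.6% and 30.4% without IL3. The means differed by 0.17 percentage points (two-sided exact permutation p 1), and by −6.24 without replicate 2 with IL3 and −7.74 without replicate 1 without IL3 (exact permutation p 1 and 0.667). The number 1 lists minus the number 2 lists gave −14.3 percentage points. Regions inside protein-coding genes made up 46.7% and 63.2% with IL3, against 50.5% and 65.7% without IL3. Among regions whose nearest gene has a known strand, those within 1 kb of the 5′ end made up 13.7% and 7.26% with IL3, against 13.3% and 14.7% without IL3. These shares at the 5′ end did not follow the replicate numbers, and the condition means differed by −3.52 percentage points. Those within 1 kb of the 3′ end made up 2.19% and 17.3% with IL3, against 1.79% and 15.2% without IL3. Gene size also differed between the lists. Each region inside a gene, or named for a gene that holds another region of the list, gave the length of that gene. The median over these regions was 72080 and 21077 bp with IL3, against 67938 and 33336 bp without IL3.

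In the number 2 lists, some short genes carried several regions along their length. Rack1, which encodes a scaffold protein of the ribosome, is 5882 bp long. It held 0 and 4 regions with IL3, against 0 and 6 regions without IL3, with scores between 18.8 and 32.5 in replicate 2 with IL3 and between 36.7 and 80.8 in replicate 2 without IL3. Rpl8 and Rps3 held 3 regions each in both number 2 lists. Of the 77 ribosomal protein genes, 0 and 11 held a region with IL3, against 0 and 5 without IL3. Among all 21887 protein-coding genes, 1.24% and 0.535% held a region with IL3, against 3.02% and 1.39% without IL3. At such shares few of 77 genes would hold a region, so the 0 in each number 1 list is near the background. Within 10 kb of an end, 0 and 11 of the 77 had a region with IL3, against 4 and 8 without IL3. The shares of all genes there were 1.7% and 0.864% with IL3, against 4.09% and 2.07% without IL3. The 39 merged regions that both number 2 lists held and the number 1 lists lacked lay inside a gene in 82.1% of cases, 7 of them in ribosomal protein genes. They included regions in Tmsb4x (thymosin beta 4), Fth1 (ferritin heavy chain), Eef1b2, Atp5b, Pfn1 and Actb. Of the 39, 35.9% overlapped the pooled LSD1 list of at least 1 condition, and 15.4% the pooled STAT5A list of at least 1 condition. By the same measure, the 197 merged regions that both number 1 lists held and the number 2 lists lacked had 99.0% for LSD1 and 84.3% for STAT5A. Of these 197, 65.0% lay more than 10 kb from a gene end.

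Longer genes held many regions in the number 1 lists, and those named next run from 56007 bp (Zfpm1) to 418000 bp (Maml3). Whether the counts followed gene length was not tested. Gse1 held 6 and 2 regions with IL3, against 10 and 3 without IL3. Zfpm1 held 2 and 1 with IL3, against 5 and 3 without IL3. Runx1, a regulator of blood stem cells, held 3 and 0 with IL3, against 5 and 0 without IL3, and Fli1, an ETS factor, held 0 and 0 with IL3, against 6 and 0 without IL3. Cuedc1 held 3 and 0 with IL3, against 6 and 1 without IL3. Maml3, a Notch coactivator, held 5 and 0 with IL3, against 6 and 1 without IL3. Within Stat5a itself, replicate 2 with IL3 had 7 regions with scores between 25.7 and 78.7, and the other 3 replicate lists had none. The pooled lists held 4 regions in Stat5a with IL3, with scores of 14.0 to 17.6, and 1 without IL3, with a score of 15.6.

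**Figure D5:**
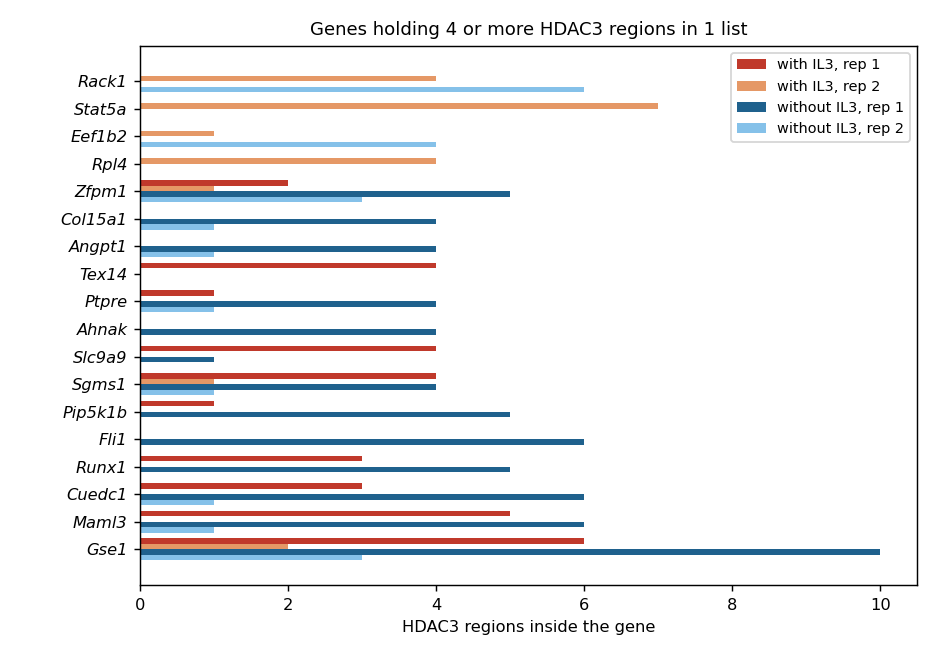
Number of HDAC3 regions inside each gene that holds 4 or more in at least 1 list (horizontal axis: regions; bars from the top of each group: with IL3 replicates 1 and 2, without IL3 replicates 1 and 2). Rack1 and Eef1b2 have bars in the number 2 lists alone, Stat5a and Rpl4 in replicate 2 with IL3 alone, and Gse1 reaches 10 in replicate 1 without IL3.

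Genes near an HDAC3 region were fewer with IL3 in this set of libraries. A region centre lay within 10 kb of an end of 372 and 189 genes with IL3, against 896 and 453 genes without IL3. The groups did not overlap. The log2 ratio was −1.26, and the two-sided exact permutation p was 0.333, the smallest the design allows. After adjustment over the 8 comparisons of library values, every p was 1. With equal numbers of regions, the highest 200 of each list, the log2 ratio was 0.12 (exact permutation p 1), so the direction was not kept at equal list length. The log2 ratio was −0.78 without replicate 2 with IL3 (exact permutation p 0.667) and −0.77 without replicate 1 without IL3 (exact permutation p 0.667).

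Of the gene lists, the 24 STAT5 targets and feedback inhibitors were those most often near a region of the number 1 lists. Regions lay within 10 kb of 8 and 0 of them with IL3, where 1.7% and 0.864% of all genes had one, against 9 and 3 without IL3, where 4.09% and 2.07% of all genes had one. Pim1, Id1 and the cytokine gene Osm had a region in replicate 1 with IL3 and in both replicates without. Ccnd3 (cyclin D3) and the survival gene Mcl1 had one in both number 1 lists. Cish, Socs1 and Socs3 had one in replicate 1 with IL3 alone, while Bcl2l1, Dusp6, Myc and Spred2 had one in replicate 1 without IL3 alone. Taking the replicates of a condition together, 8 of the 24 had a region with IL3 and 9 without IL3, where 2.48% and 5.48% of all genes had. Of these, 3 had one with IL3 alone (1.32% of all genes), 4 without IL3 alone (4.32%) and 5 in both conditions (1.16%). The genes of a single list each rest on 1 library, and the pooled HDAC3 lists did not always place them in the same condition. With IL3 the pooled list had a region near Cish, Socs3 and Myc, against Dusp6 and Spred2 without IL3, and neither had one near Socs1 or Bcl2l1.

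Of the 12 genes of HDAC3 and its complexes, 3 and 0 had a region within 10 kb with IL3, against 4 and 2 without IL3, beside the same shares of all genes as for the STAT5 targets (1.7% and 0.864% with IL3, against 4.09% and 2.07% without IL3). At Tbl1xr1, replicate 1 with IL3 had a region at 54.8, against regions at 107.2 and 33.0 without IL3, all within 451 bp of the 5′ bound of the gene. The regions of replicate 1 with IL3 and replicate 2 without IL3 overlapped each other upstream of the transcript start of the sequence shown above, and that of replicate 1 without IL3 lay at this start. A second region named for Tbl1xr1, farther upstream, stood in place 6 of replicate 1 with IL3, against places 5 and 124 of the replicates without IL3, and was not in replicate 2 with IL3. Tbl1x had 16.4 in replicate 1 with IL3, against 39.5 in replicate 1 without IL3, both within 244 bp of its start. Ncor1 had a region in 1 list without IL3. Of the 20 IL3 receptor and JAK-STAT genes, 2 and 5 had a region with IL3, against 5 and 2 without IL3. Csf2rb2, which encodes an IL3 receptor beta chain, had a region within 10 kb in all 4 lists, at different places, with 21.9 and 15.4 with IL3, against 50.8 and 47.7 without IL3. Its neighbour Csf2rb had regions in the number 2 lists alone.

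Counts for other lists are to be read against all genes, of which 1.7% and 0.864% had a region within 10 kb with IL3, against 4.09% and 2.07% without IL3. Immediate early genes had 3 and 0 of 17 with IL3, against 6 and 0 without IL3. Zfp36, which encodes an mRNA decay factor, had 2 regions in replicate 1 with IL3 alone, and Ier3 and Junb had regions in both number 1 lists. Fos, Fosb and Nr4a1 had regions in replicate 1 without IL3 alone. Survival and death genes had 3 and 1 of 15 with IL3, against 5 and 0 without IL3, and erythroid and megakaryocyte genes had 2 and 2 of 16 with IL3, against 5 and 4 without IL3. Myeloid and mast cell genes had 1 and 0 of 16 with IL3, against 4 and 1 without IL3, and the RUNX and ETS factors had 1 and 0 of 14, against 3 and 0. LSD1 and CoREST genes had 0 and 0 of 14 with IL3, against 2 and 1 without IL3. None of the 16 B-lineage genes, Pax5 and Ebf1 among them, had an HDAC3 region within 10 kb in any list. Of all protein-coding genes 6.8% had a region in at least 1 list, so a count of 0 among 16 genes is near the background.

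Promoters under HDAC3 regions could be searched for motifs, because sequence from 250 bases before to 50 bases after the start is at hand for 17492 of the 21887 genes. A region overlapped the window by 50 bp or more in 43 and 6 windows with IL3, against 134 and 32 windows without IL3. The SP and KLF motif was in 46.2% of all 21263 windows, and in 79.1% and 83.3% of the windows called with IL3, against 70.9% and 78.1% without IL3. The ETS motif CCGGAAG was in 11.6% of all windows, and in 20.9% and 33.3% with IL3, against 18.7% and 31.3% without IL3. The STAT motif was in 7.69% of all windows. It was in 7 of the 43 windows of replicate 1 with IL3 (16.3%) and 0 of the 6 of replicate 2, against 2 of 134 (1.49%) and 0 of 32 without IL3. The windows with IL3 are those of Socs3, Klf9, Irf2, Ncaph2, Zfp398 and the pair Stradb and Trak2, which share 1 stretch between them. Those without IL3 are Ctsc and Nrros. ZNF143 motifs were in 2.54% of all windows, and in 3 and 0 windows with IL3, against 0 and 1 without IL3. These counts are small, motifs were searched on both strands, and a motif is a match of letters, not a binding site.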

How the data were processed

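HDAC3 ChIP-seq was done in Ba/F3 cells with 2 biological replicates with IL3 and 2 without IL3. The submitters' processing notes name Trimmomatic 0.30, Bowtie2 2.1.0, Picard 1.92, HOMER 4.8 and the mm10 assembly. Caller settings and its control are not stated in these sources. The authors deposited 1 list of regions per library and 1 per pooled library, each region with a score that is not defined. Scores were used as an order within a list. Region width is fixed within a list, at 123 and 153 bp with IL3 and 131 and 147 bp without IL3. An input library was not used here.

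Regions on assembled chromosomes were merged at 1 bp overlap with Python 3.11.15, numpy 2.4.6, pandas 2.3.3 and scipy 1.17.1, and figures were drawn with matplotlib 3.10.9. Library values were compared by two-sided exact permutation tests with Benjamini-Hochberg adjustment over 8 comparisons. Regions are not replicates, and Wilson intervals at 95% cover counting error only. A region is named by the protein-coding RefSeq gene that holds its centre or has the nearest end. Strand came from the promoter table and is known for 17492 of 21887 genes. Merging was tested on simulated lists, in which 8 of 8 planted class counts were recovered.

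The comparison, the members and the gene lists were chosen with earlier results of these data known. Genes could be named from the 10 highest regions of each list, from regions in 1 condition, from regions in 3 or 4 lists, and from the gene lists. Ribosomal protein genes, genes with several regions, genes at the ends of the order of shared regions and genes of promoter windows were chosen after their values were seen. Alternatives were libraries left out in turn, other overlap rules, upper parts of each list, other distances to genes, pooled lists, removal of regions in all 6 pooled lists, scaffolds kept, and the replicate block. Values of some single genes are not reported here.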

Additional observations from a re-analysis of the deposited data

Results flagged for a closer look

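Replicate 2 with IL3 had 31 regions off the assembled chromosomes, which the comparisons leave out, against 0 in replicate 1 with IL3 and 0 and 2 in the replicates without IL3. They were 11.7% of its 265 regions, and 1 of them lay on the mitochondrial genome. Among the other libraries of the series this share was at most 0.565%. The cause was not tested.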

How the results depend on the processing

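Of the values under other settings, 62 were kept, 15 moved and 15 changed sign. Kept means the same direction or, for counts of regions, a value within 1.5 times. For the agreement of lists it also meant a change of less than 7.84 percentage points, the SD over the ordered pairs of lists. Values that kept their direction could still differ much in size. With 1 library left out, the ranges were −2.03 to −0.41 for the log2 ratio of region numbers, −1.76 to −0.77 for that of genes near a region, 2 to 398 for regions with IL3 alone and 93 to 1358 for regions without IL3 alone. They were −7.74 to 8.07 percentage points for gene ends, −18.0 to 38.1 for STAT5A, −49.7 to 6.39 for LSD1 and −9.83 to 10.9 for the agreement of lists across minus within conditions. Regions with IL3 alone numbered 0 with centres within 100 bp or with overlap of 50% of the shorter region, 2 among the highest 200 of each list, and 711 over the pooled lists. Regions without IL3 alone numbered 52 in the upper 50% of each list, 22 among the highest 200 and 2850 over the pooled lists. The difference at gene ends turned to −5.63 in the upper 50%, −0.25 among the highest 200, −1.07 without regions in all 6 pooled lists, −1.16 at 5 kb, −2.95 over pooled lists, and −3.52 for transcript starts alone, which was added after seeing the data. For genes near a region, the highest 200 gave 0.12. For STAT5A, the pooled list with IL3 used for all 4 libraries gave −4.48 and that without IL3 −11.7. The cause of these changes was not tested, except that fewer regions enter the shorter lists. The region number has no value among the highest 200, which fixes it. Added after seeing the data were the joining of regions within 500 bp (1 and 106 regions) and replicate 2 with IL3 less its highest region and 11 regions on chromosome 9 (−1.26). The replicate numbers do not pair the samples by any label, and over 2572 merged regions the differences between numbers 1 and 2 with and without IL3 had r = 0.03. Of these regions 2149 were in 1 list alone and had no difference in the other condition, which keeps r small whatever the pairing. This r therefore cannot tell whether libraries of the same number belong together. With the replicate number as a block, the exact permutation p was 0.5, the smallest possible for 2 pairs, for region number, LSD1 and genes near a region, and 1 for STAT5A and gene ends. Neither design can reach a p under 0.05, so the block says nothing on stability. With 2 libraries a group and undefined scores, a region that is not in a list may be present below its threshold.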
